A study of Mus musculus with 30 samples.

Results

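Macrophages and microglia, phagocytes sorted from the brain after ischemic stroke, were compared in wild-type (WT) mice by the genes each expressed. The comparison took every array whose title reads WT Macrophage, 3 in number, and every array whose title reads WT Microglia, 6 in number, which together made 9 of the 30 arrays in the series. All cells came from the ischemic hemisphere of male C57BL/6 mice aged 8 to 10 weeks, in which the middle cerebral artery had been occluded for 45 min and reperfused for 48 h. Macrophages were sorted as CD45hi CD11b+ Ly6G- cells and microglia as CD45lo CD11b+ cells, a gate that the labels also write as Ly6G+. That sign may be an error for Ly6G-, which cannot be settled here. The same pair of cell types from TREM1 knockout (KO) mice, with 6 macrophage and 6 microglia arrays, gave the same contrast in other animals after the same operation. Levels are also given for 4 WT neutrophil arrays. These and 5 KO neutrophil arrays entered the fit, where they add to the estimate of spread shared by all groups. The titles call the arrays biological replicates. The labels do not say whether cells of several animals were pooled. The p-values therefore measure spread between arrays, which need not be that between animals. That spread was estimated over all 6 groups of the series, not over the 9 compared arrays alone. No sample of uninjured brain or of blood monocytes was analysed here. The gates rest on surface markers and do not show where the cells came from.

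Microglia settle in the brain in the embryo, renew themselves there, and keep a gene programme that depends on signals from brain tissue, including TGF-beta. Monocytes are made in the bone marrow, follow the chemokine CCL2 through their receptor CCR2 into injured tissue, and become macrophages within days. Both are phagocytes that clear dead cells and release cytokines, which is why surface CD45 and a few marker genes are used to tell them apart after injury.

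Values are log2 of the deposited intensities, on which 1 unit is a factor of 2, and the median of the mean levels of all 22103 transcript clusters was 6.69. A difference is macrophages minus microglia on this scale with the standard error (SE) of the fit, and a cluster was called where limma's p, adjusted by Benjamini-Hochberg, was under 0.05, which is what passed means below. WT macrophages differed from WT microglia in 8285 clusters, 37.5% of all clusters tested. Of these, 2126 were higher in macrophages (9.62% of all clusters) and 6159 were lower (27.9%). Differences of at least 2-fold were found in 1278 clusters that were higher and 2544 that were lower, and differences of at least 16-fold in 179 that were higher and 175 that were lower. Counts for the gene lists below are read against these 2 shares.

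The excess of lower calls depended on how the arrays were scaled. The median level of an array was 6.39 to 6.43 in WT macrophages and 6.74 to 6.91 in WT microglia, while the 95th percentile was 13.61 to 13.70 in macrophages and 13.48 to 13.65 in microglia. The median difference over all clusters was -0.25. After quantile normalization of all arrays it was 0.00274, with 3140 clusters higher and 3180 lower, and after centring each array on its median it was 0.15, with 4835 higher and 2441 lower. The share of calls that were higher in macrophages was thus 25.7% as deposited, 49.7% after quantile normalization and 66.5% after centring. Small differences of either sign are therefore not read here one by one, and a named gene's call under both scalings is given where it changed.

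**Figure D1:**
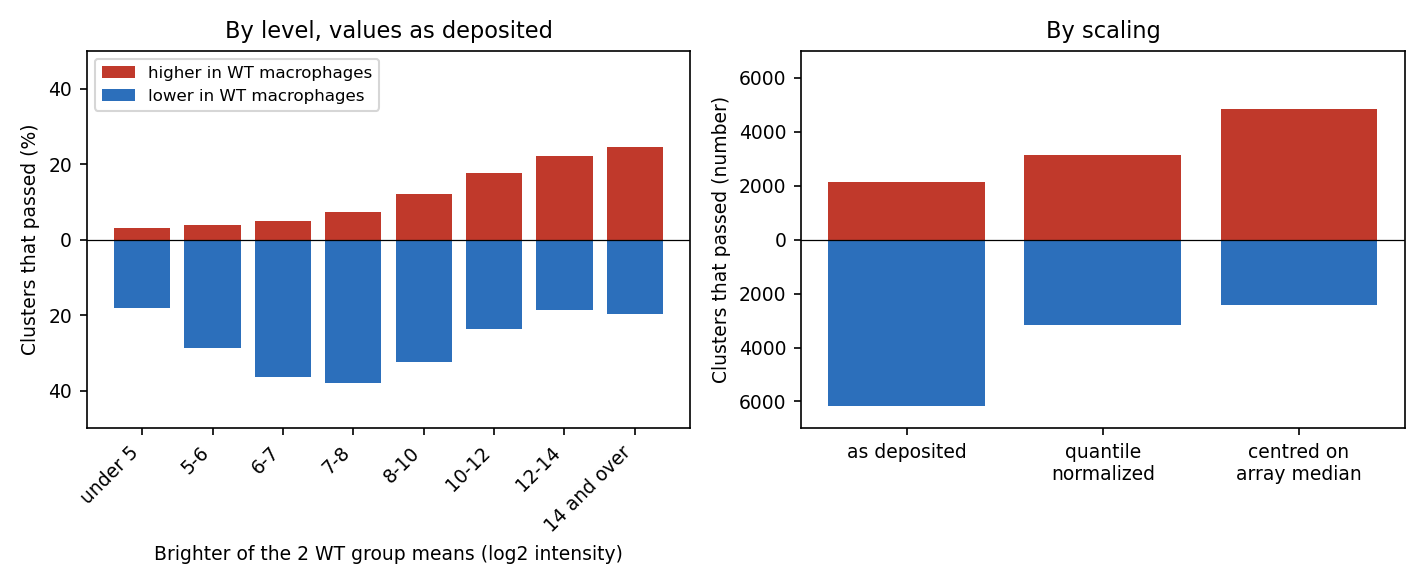
Left, share of transcript clusters that passed (%) as higher (red, upward) or lower (blue, downward) in WT macrophages than in WT microglia, by the brighter of the 2 WT group means (log2 intensity). Right, number of clusters that passed as deposited, after quantile normalization and after centring each array on its median. Lower calls outnumbered higher ones among dim clusters, and the balance was 2126 against 6159 as deposited, 3140 against 3180 after quantile normalization and 4835 against 2441 after centring.

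The balance also changed with brightness. Of 1803 clusters whose brighter group mean lay from 12 to 14, 400 were higher in macrophages and 335 were lower. Of 3335 clusters from 6 to 7, by contrast, 163 were higher and 1210 were lower. In a principal component analysis of the 9 arrays, the leading component, which parted macrophages from microglia, took up 70.7% of the variance. The correlation between arrays over all clusters was 0.976 to 0.986 within macrophages, 0.981 to 0.989 within microglia and 0.908 to 0.936 between them. The second component, with 8.02% of the variance, set WT macrophage 1 and WT microglia 4 apart from the others of their group, and without both arrays 1745 clusters were higher and 4654 lower.

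The transcripts of the sorting markers overlapped between the cell types. Ptprc, which encodes CD45, was at 15.46, 15.12 and 15.17 in the 3 WT macrophage arrays, against 14.37 at the lowest, 14.83 at the median and 15.28 at the highest in the 6 WT microglia arrays. Itgam, which encodes CD11b, was at 15.37, 15.38 and 15.08 in macrophages and at 14.71, 14.94 and 15.26 (lowest, median and highest) in microglia. The groups overlapped for both genes, and neither difference passed (0.47 ± 0.24 for Ptprc, adjusted p = 0.129, and 0.32 ± 0.20 for Itgam, adjusted p = 0.208). Both passed as higher in macrophages after centring, with differences of 0.88 and 0.72. Ly6g, the gene of the Ly6G marker, was not among the named clusters.

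**Figure D2:**
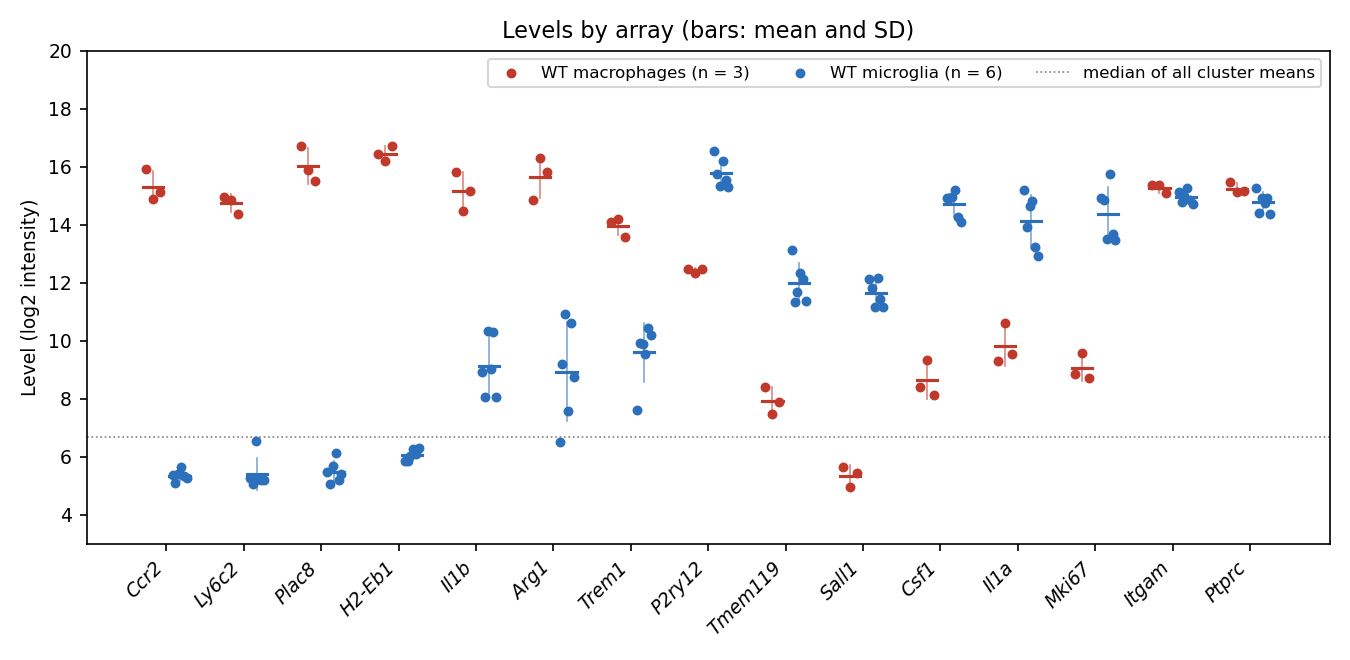
Level of 15 genes (log2 intensity) in each WT macrophage array (red, left, n = 3) and each WT microglia array (blue, right, n = 6), with the mean and SD as bars and the median of all cluster means, 6.69, as a dotted line. Ccr2, Ly6c2, Plac8, H2-Eb1, Il1b, Arg1 and Trem1 were higher in every macrophage array than in every microglia array, P2ry12 to Mki67 were lower, and Itgam and Ptprc overlapped.

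Markers of recruited monocytes and macrophages were higher in the sorted macrophages. Of 21 measured genes of this list, 20 were higher in macrophages and none was lower, with a median difference of 7.19 against -0.25 over all clusters. The list is not specific to monocytes: its mean level was 14.41 to 14.70 in WT macrophage arrays, 8.25 to 8.81 in WT microglia and 12.21 to 13.01 in WT neutrophils. Ccr2, the receptor that draws monocytes out of the bone marrow, was at 15.93, 14.89 and 15.14 in macrophages, against 5.08, 5.36 and 5.65 (lowest, median and highest) in microglia. All 3 macrophage arrays lay far above all 6 microglia arrays, which were below the median of all clusters (difference 9.97 ± 0.64, adjusted p = 2.66e-13). Where a cell type lies this low, its signal over background is not known and the difference is no exact fold. Ly6c2, part of the Ly6C antigen of inflammatory monocytes, stood at 14.96, 14.87 and 14.38 in macrophages and at 5.06, 5.22 and 6.55 (lowest, median and highest) in microglia. Its groups did not overlap either, although one microglia array, number 3, lay above the other 5 (difference 9.32 ± 0.46, adjusted p = 7.50e-16). Such complete separation was not rare: 1943 clusters (8.79%) had all macrophage arrays above all microglia arrays, and 5495 (24.9%) had all of them below.

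Plac8, a small cysteine-rich protein of monocytes and granulocytes, had the largest increase of all genes eligible by the naming rule. It was at 16.71, 15.89 and 15.50 in macrophages and at 5.06, 5.45 and 6.13 (lowest, median and highest) in microglia (difference 10.54 ± 0.50, adjusted p = 3.99e-16). Chil3, a chitinase-like secreted protein, differed by 10.48 ± 0.59, S100a4, a calcium-binding protein, by 8.32 ± 0.38, and Napsa, an aspartic protease, by 7.49 ± 0.34. Further list members were Emilin2, an extracellular matrix glycoprotein (7.36 ± 0.30), Ms4a8a (5.55 ± 0.26) and the antiviral membrane protein Ifitm3 (4.20 ± 0.20), which microglia also held at a median of 12.37. WT neutrophils held Chil3 at 15.02 to 15.87 and Emilin2 at 14.24 to 15.19, close to the macrophages, and Ccr2 at 7.52 to 9.96. The exception was Lgals3, the galectin often used for activated macrophages. It was at 15.38, 17.04 and 17.11 in macrophages and at 14.65, 15.83 and 16.60 (lowest, median and highest) in microglia, and the groups overlapped (difference 0.77 ± 0.47, adjusted p = 0.203). Without WT macrophage 1 its difference was 1.33 and passed (adjusted p = 0.0449).

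The other genes among the 12 largest increases came from outside that list. They were the lysosomal phospholipase-like Plbd1 (9.74 ± 0.32), the lipid flippase Atp8b4 (9.66 ± 0.34), the signal regulatory protein Sirpb1c (8.99 ± 0.44), Ly6c1 (8.62 ± 0.52), annexin A1 (Anxa1, 8.28 ± 0.38), and the class II genes H2-Eb1 and H2-Ab1. Ly6c1 and Ly6c2 are near-identical neighbours, and their probes may not tell them apart. Each of the 12 was 12.9 or brighter in every macrophage array, and each passed in the same direction in KO mice.

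The homeostatic programme of microglia was lower in macrophages in every gene measured. All 23 measured genes of the homeostatic list were lower in macrophages, with a median difference of -3.84. After centring 22 passed as lower. The list's mean level was 9.65 to 10.17 in WT macrophage arrays, 13.80 to 14.75 in WT microglia and 9.82 to 10.82 in WT neutrophils. Its genes are not all specific to microglia: WT neutrophils held P2ry13 at a mean of 15.03, against 13.43 in WT microglia. P2ry12, the ADP receptor that guides microglial processes, was at 12.48, 12.34 and 12.49 in macrophages and at 15.31, 15.65 and 16.53 (lowest, median and highest) in microglia. The groups did not overlap (difference -3.34 ± 0.29, adjusted p = 1.70e-10), yet every macrophage array stood well above the median of all clusters. Tmem119, a membrane protein of microglia, was at 8.42, 7.46 and 7.88 in macrophages and at 11.34, 11.91 and 13.12 in microglia, again with no overlap (difference -4.08 ± 0.43, adjusted p = 7.97e-09). Cx3cr1, the fractalkine receptor, was at 10.06, 9.20 and 9.78 in macrophages against 13.20, 13.48 and 13.98 in microglia, a difference of -3.84 ± 0.42.

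Sall1, the zinc finger factor that holds microglial identity, separated the cells more sharply. It was at 5.66, 4.95 and 5.45 in macrophages, below the median of all clusters, and at 11.18, 11.63 and 12.17 (lowest, median and highest) in microglia (difference -6.30 ± 0.29, adjusted p = 2.58e-16). Larger differences within the list were those of the lectin Siglech (-7.22 ± 0.42), the fructose transporter Slc2a5 (-7.19 ± 0.46), the adhesion receptor Adgrg1 (-7.05 ± 0.49) and the lysophospholipid receptor Gpr34 (-6.67 ± 0.46). The anion transporter Slco2b1 differed by -5.53 ± 0.38, the purinergic receptor P2ry13 by -3.03 ± 0.42 and the transcription factor Mef2c by -3.24 ± 0.49. Macrophage levels varied over the list. Slc2a5, at 5.22 to 6.06, lay below the median of all clusters. Gpr34, at 8.79 to 10.43, and Mef2c, at 11.43 to 11.83, lay above it.

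Sparc, a secreted collagen-binding protein, had the largest decrease. It was at 7.03, 7.04 and 10.60 in macrophages and at 17.04, 17.24 and 17.60 (lowest, median and highest) in microglia (difference -9.02 ± 0.88, adjusted p = 1.88e-09). The third macrophage array stood 3 log2 units or more above the other 2, and the KO macrophage arrays stood at 10.55 to 12.72, so that the difference in KO mice was -5.23. WT neutrophil arrays had 12.21 to 16.81. The rest of the 12 largest decreases, apart from list members, were the microtubule-binding protein Nav3 (-8.03 ± 0.38), the matrix protease Adamts1 (-7.81 ± 0.49), the myelin and membrane protein Pmp22 (-7.53 ± 0.74), the sarcoglycan Sgce (-7.53 ± 0.51), the lipid phosphatase Plpp1 (-6.60 ± 0.64) and the collagen-modifying enzyme P3h2 (-6.31 ± 0.47).

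**Figure D3:**
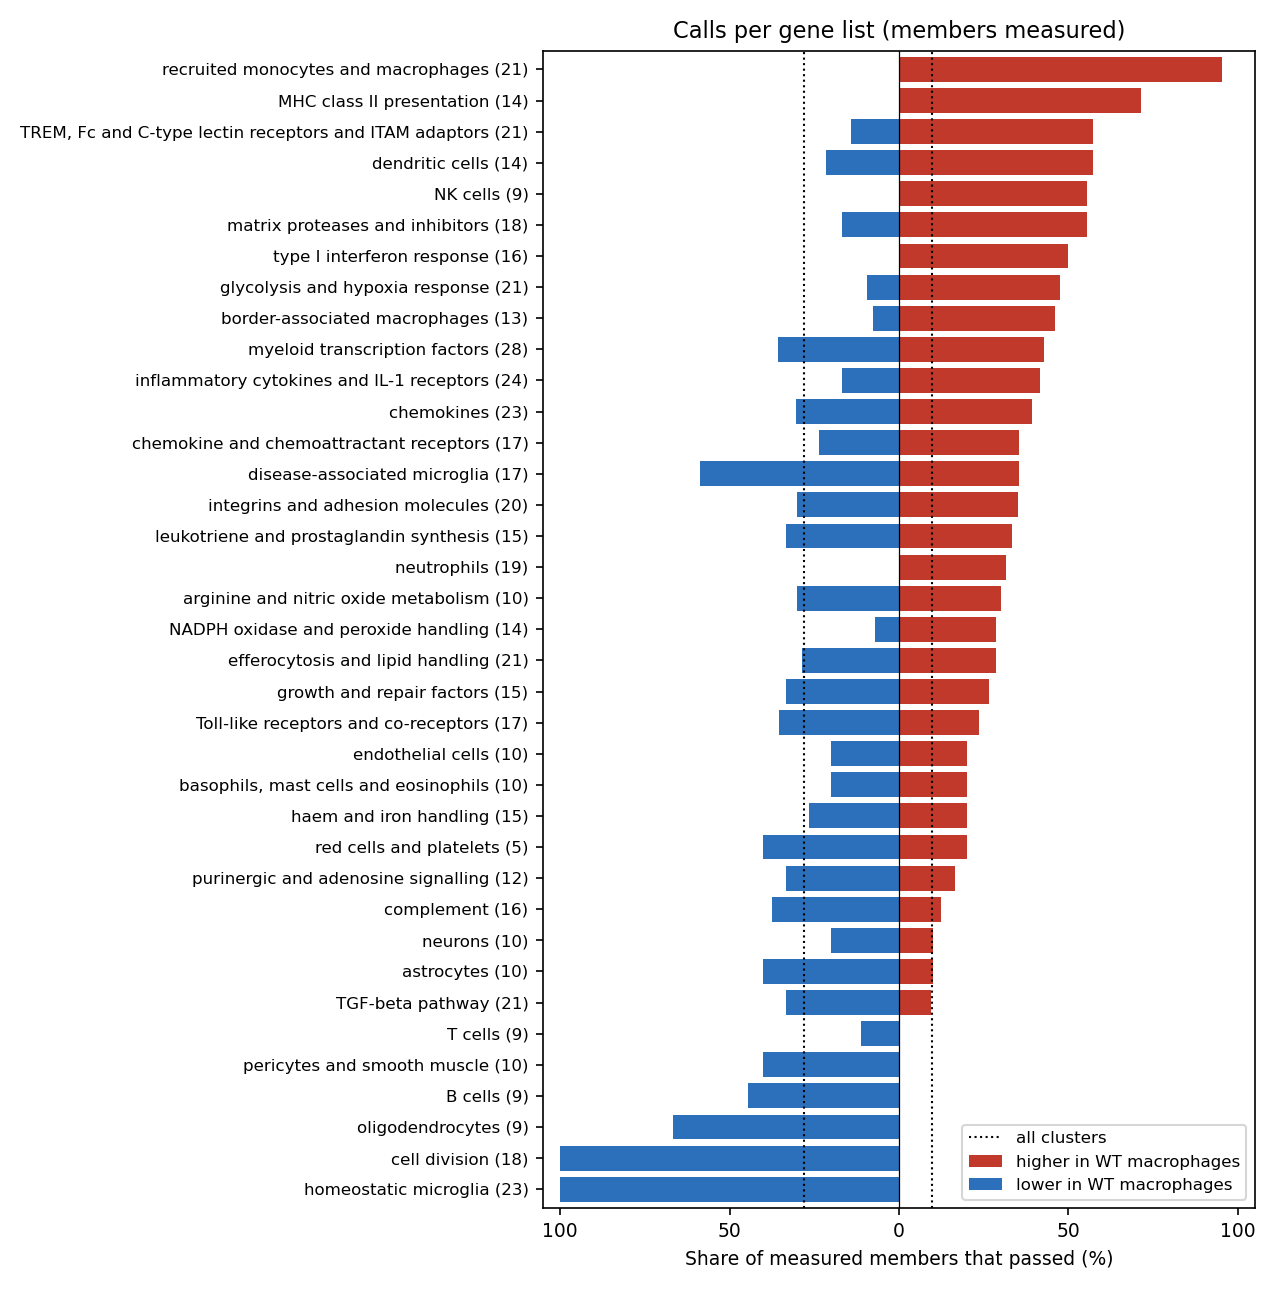
Share of the measured members of each gene list (%) that passed as higher (red, right) or lower (blue, left) in WT macrophages than in WT microglia, with the number of measured members in brackets. Dotted lines give the shares among all clusters, 9.62% higher and 27.9% lower. All 23 homeostatic and all 18 cell division genes were lower. Of the recruited cell genes 20 of 21 were higher, and of the MHC class II presentation genes 10 of 14.

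Transcription factors of the myeloid lineage split between the cell types, with 12 of 28 measured genes higher in macrophages, 10 lower and a median difference of 0.24. The higher count was 9 without WT macrophage 2, and the lower count was 7 without WT macrophage 1. After centring 15 were higher and 7 lower, with a median of 0.64. Runx3, a Runt factor of leukocytes, was at 13.42, 11.45 and 12.05 in macrophages against 4.95, 5.27 and 5.50 (lowest, median and highest) in microglia. The groups were far apart (difference 7.05 ± 0.41, adjusted p = 3.35e-14). Nr1h3, which encodes the oxysterol-sensing nuclear receptor LXR alpha, was higher by 5.27 ± 0.39, and Nr4a1, a nuclear receptor of monocytes, by 3.05 ± 0.31. On the side of microglia, Sall3, a relative of Sall1, was lower in macrophages (-6.00 ± 0.26). The basic helix-loop-helix pair Bhlhe40 and Bhlhe41 went opposite ways, with Bhlhe40 higher in macrophages (4.53 ± 0.34) and Bhlhe41 lower (-2.73 ± 0.36). The shared lineage factors did not pass: Spi1, which encodes PU.1, differed by 0.28 ± 0.18 (adjusted p = 0.238) and Irf8 by -0.56 ± 0.32 (adjusted p = 0.177). Spi1 passed as higher in macrophages after centring, with a difference of 0.68.

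In the TGF-beta pathway, which maintains microglia, 2 of 21 measured genes were higher in macrophages and 7 lower, with a median difference of -0.34. These shares are near those of all clusters, and after centring 6 were higher and 5 lower, with a median of 0.07. Without WT microglia 1 the higher count was 4. Both receptor chains were lower in macrophages. Tgfbr2 was at 10.48, 10.83 and 10.75 in macrophages and at 12.37, 12.69 and 13.05 (lowest, median and highest) in microglia, without overlap (difference -2.03 ± 0.23, adjusted p = 4.28e-08), and Tgfbr1 differed by -1.58 ± 0.32. Tgfbi, a secreted protein induced by TGF-beta, went the other way (2.10 ± 0.15, adjusted p = 1.42e-12). The ligand gene Tgfb1 did not pass (0.70 ± 0.32, adjusted p = 0.0824), but passed as higher in macrophages after centring (1.11), under array weights and without WT macrophage 2, WT microglia 1 or WT microglia 4.

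Cell division genes were lower in macrophages throughout: all 18 measured members of the list passed as lower and none as higher, with a median difference of -3.58. After centring 17 passed as lower. Mki67, the proliferation antigen, was at 8.87, 9.58 and 8.73 in macrophages and at 13.48, 14.28 and 15.75 (lowest, median and highest) in microglia. Every macrophage array lay below every microglia array (difference -5.31 ± 0.43, adjusted p = 4.77e-11). Cdk1, the kinase that starts mitosis, was at 4.71, 6.37 and 6.91 in macrophages against 10.42, 11.99 and 12.92 in microglia (difference -5.94 ± 0.51, adjusted p = 1.58e-10). Its partner cyclin B2 (Ccnb2) differed by -3.25 ± 0.40, the DNA-untangling enzyme Top2a by -4.95 ± 0.45 and the chromosome passenger Birc5 by -3.87 ± 0.39. The replication licensing subunits Mcm5 and Mcm6 differed by -3.64 ± 0.31 and -2.58 ± 0.27.

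Genes of late cell cycle share promoter elements, and 3 promoters of the list are printed because these genes moved together. The windows run from 250 bases before to 50 after the RefSeq start of each gene (GRCm38.p6). Capitals mark 2 words on either strand. CCAAT, which reads ATTGG from the other strand, is the box bound by the factor NF-Y. TTTGAA, which reads TTCAAA from the other strand, is the cell cycle genes homology region bound by the DREAM complex. The words do not overlap in these windows. The windows lie at chr10:69352863-69353162 (minus strand, Cdk1), chr9:70421505-70421804 (minus strand, Ccnb2) and chr11:99024140-99024439 (minus strand, Top2a).
Cdk1: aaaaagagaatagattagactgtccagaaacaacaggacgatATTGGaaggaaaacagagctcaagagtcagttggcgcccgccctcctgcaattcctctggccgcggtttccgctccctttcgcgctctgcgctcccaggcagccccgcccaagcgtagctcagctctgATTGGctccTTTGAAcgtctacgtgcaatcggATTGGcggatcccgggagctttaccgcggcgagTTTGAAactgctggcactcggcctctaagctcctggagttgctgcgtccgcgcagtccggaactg
Ccnb2: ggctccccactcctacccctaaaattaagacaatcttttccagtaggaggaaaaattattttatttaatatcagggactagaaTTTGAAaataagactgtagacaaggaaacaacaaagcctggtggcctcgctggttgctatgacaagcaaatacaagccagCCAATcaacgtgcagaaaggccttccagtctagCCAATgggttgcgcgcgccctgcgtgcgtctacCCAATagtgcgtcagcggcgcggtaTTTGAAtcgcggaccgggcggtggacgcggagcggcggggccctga
Top2a: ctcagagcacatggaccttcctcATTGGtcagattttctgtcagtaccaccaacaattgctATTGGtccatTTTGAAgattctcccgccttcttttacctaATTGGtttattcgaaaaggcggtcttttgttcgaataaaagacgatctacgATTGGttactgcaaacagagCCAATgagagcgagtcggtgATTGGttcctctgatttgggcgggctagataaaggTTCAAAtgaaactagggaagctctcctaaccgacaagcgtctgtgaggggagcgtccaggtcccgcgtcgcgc
Cdk1 and Ccnb2 each hold CCAAT 3 times and TTTGAA 2 times, and Top2a holds CCAAT 6 times and TTTGAA 2 times. Of the 18 measured genes, 15 had a window, and 7 of these 15 (46.7%) held both words, as did 7.97% of all 27025 genes with a window. CCAAT was in a window of 13 of the 15 genes (86.7%) and of 41.1% of all genes. These are matches of letters and say nothing on whether a factor was bound.

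Antigen presentation by MHC class II ran the other way. Of 14 measured genes, 10 were higher in macrophages and none was lower, with a median difference of 1.64. H2-Eb1, a beta chain of class II, was at 16.45, 16.19 and 16.73 in macrophages and at 5.85, 6.07 and 6.30 (lowest, median and highest) in microglia. The macrophage arrays were near the top of the scale and the microglia arrays below the median of all clusters (difference 10.39 ± 0.61, adjusted p = 4.67e-14). H2-Ab1, the other classical beta chain, differed by 9.33 ± 0.51, and the alpha chain H2-Aa by 6.97 ± 0.35. Ciita, the transactivator of class II genes, was at 8.83, 7.99 and 8.38 in macrophages against 5.32, 5.59 and 6.11 in microglia, again without overlap (difference 2.79 ± 0.21, adjusted p = 1.33e-11).

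The peptide exchange factor and the costimulators did not follow as one. H2-DMb2 was higher by 2.79 ± 0.37, while H2-DMb1, bright in both cells, differed by 0.88 ± 0.43 and did not pass (adjusted p = 0.110), although it passed after centring (1.29) and in a fit of the compared arrays alone. Their sequences are alike, so the probes of the pair may share signal. The costimulator Cd80 was higher by 3.43 ± 0.55, and Cd86 was at 13.22 or more in every array of both cells, with overlapping groups (-0.46 ± 0.42, adjusted p = 0.413).

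The start regions of H2-Eb1 and H2-Aa are printed because their transcripts moved with that of Ciita, which acts through factors on the X and Y boxes of class II promoters. Capitals mark CCAAT, the word of the Y box, and TAGCAAC, a word of the X box. Both were searched on either strand, where they read ATTGG for the Y box and GTTGCTA for the X box, and no matches overlap. The windows are chr17:34305617-34305916 (plus strand, H2-Eb1) and chr17:34287774-34288073 (minus strand, H2-Aa).
H2-Eb1: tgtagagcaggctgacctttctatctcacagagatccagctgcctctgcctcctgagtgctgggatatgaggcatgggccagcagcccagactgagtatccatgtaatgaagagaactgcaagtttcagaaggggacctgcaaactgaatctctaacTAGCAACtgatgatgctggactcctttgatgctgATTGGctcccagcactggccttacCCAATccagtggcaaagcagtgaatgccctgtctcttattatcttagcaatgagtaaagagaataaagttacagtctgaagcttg
H2-Aa: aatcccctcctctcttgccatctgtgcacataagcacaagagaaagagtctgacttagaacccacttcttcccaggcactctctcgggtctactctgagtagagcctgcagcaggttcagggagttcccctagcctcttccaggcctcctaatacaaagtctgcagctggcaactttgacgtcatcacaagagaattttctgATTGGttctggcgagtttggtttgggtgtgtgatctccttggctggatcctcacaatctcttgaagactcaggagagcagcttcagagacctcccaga
H2-Eb1 holds TAGCAAC at 93 bases, ATTGG at 59 bases and CCAAT at 35 bases before the start, and H2-Aa holds ATTGG at 48 bases before it and no exact TAGCAAC. The list of 14 measured genes also holds costimulators such as Cd80 and Cd86, so its shares are not those of class II chains alone. Of its 14 genes, 10 had a window. Of these, 7 held CCAAT (70%, against 41.1% of all genes) and 2 held TAGCAAC (20%, against 4.28%). No window was found under the names H2-Ab1 and Ciita.

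Marker lists of other antigen-presenting and brain macrophages were divided. Among 14 dendritic cell genes 8 were higher in macrophages and 3 lower, with a median difference of 0.84. Cd209a, the lectin of monocyte-derived dendritic cells, was at 12.09, 11.67 and 13.07 in macrophages against 5.47, 5.70 and 5.96 (lowest, median and highest) in microglia (6.59 ± 0.36, adjusted p = 1.00e-14), and Dpp4 was higher by 2.79 ± 0.35. Batf3, a factor needed for cross-presenting dendritic cells, was lower in macrophages (-1.97 ± 0.25). For 6 of the 14 genes both group means were below the median of all clusters. Sorted populations are mixtures, and in bulk arrays fewer cells of a type and less RNA per cell cannot be told apart.

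For border-associated macrophages, the resident cells of meninges and vessels, 6 of 13 genes were higher in the sorted macrophages and 1 was lower, with a median difference of 0.66. The coagulation factor gene F13a1 differed by 6.69 ± 0.46 and the membrane protein Ms4a7 by 5.08 ± 0.39. Cbr2, a carbonyl reductase, was at 8.17, 12.44 and 12.71 in macrophages and at 5.86, 6.73 and 8.65 in microglia. WT macrophage 1 lay within the range of microglia, and the groups overlapped although the gene passed (4.13 ± 0.75, adjusted p = 6.69e-05). The list's best known marker, the mannose receptor Mrc1, did not pass (0.41 ± 0.62, adjusted p = 0.633), nor did Siglec1 (0.49 ± 0.33, adjusted p = 0.258), which passed after centring. The scavenger receptor Stab1 was lower in macrophages (-0.74 ± 0.24, adjusted p = 0.016) and lost the call after centring and without WT macrophage 1 or WT macrophage 3.

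Genes of disease-associated microglia, a state first described around amyloid plaques, did not move as a block. Of 17 measured genes 6 were higher in macrophages and 10 lower, with a median difference of -1.07. Gpnmb, a lysosome-linked glycoprotein, was at 14.28, 14.70 and 15.87 in macrophages against 8.95, 9.56 and 10.23 (lowest, median and highest) in microglia (5.38 ± 0.49, adjusted p = 4.77e-10), and the integrin Itgax differed by 3.50 ± 0.46. In the other direction, the cystatin Cst7 was at 8.84, 8.01 and 9.42 in macrophages against 12.90, 13.11 and 13.74 in microglia (-4.43 ± 0.46, adjusted p = 6.08e-09). The cholesterol hydroxylase Ch25h differed by -5.30 ± 0.43, the lipase Lpl by -1.78 ± 0.20, the protease Ctsl by -1.82 ± 0.21 and the lipid-sensing receptor Trem2 by -2.13 ± 0.36.

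The 2 forms of interleukin-1 were divided between the cell types. Il1b, the secreted form matured by inflammasomes, was at 15.82, 14.48 and 15.16 in macrophages and at 8.05, 8.98 and 10.35 (lowest, median and highest) in microglia. All macrophage arrays were above all microglia arrays (difference 6.03 ± 0.45, 65.4-fold, adjusted p = 6.01e-12). Il1a, the alarmin form, was at 9.31, 10.61 and 9.56 in macrophages and at 12.93, 14.28 and 15.19 in microglia, with the order turned round (difference -4.30 ± 0.63, adjusted p = 2.75e-06). The inhibitors of this pathway were higher in macrophages, with a difference of 6.38 ± 0.68 for the decoy receptor Il1r2 and 2.98 ± 0.40 for the receptor antagonist Il1rn. WT neutrophils held Il1b at 17.4 to 17.6 and Il1r2 at 17.2 to 17.4, above the macrophages.

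Over the whole cytokine list 10 of 24 genes were higher in macrophages and 4 lower, with a median difference of 0.34. Csf1, the growth factor on which microglia and macrophages both live, was at 8.41, 9.35 and 8.14 in macrophages and at 14.08, 14.92 and 15.21 (lowest, median and highest) in microglia. Every macrophage array lay below every microglia array (-6.10 ± 0.44, adjusted p = 3.13e-12). WT neutrophils held Csf1 at a mean of 15.07, against 14.73 in WT microglia. The costimulatory ligand Tnfsf9 was higher in macrophages by 3.92 ± 0.42. Tnf was at 10.70, 12.19 and 11.84 in macrophages and at 11.53, 12.54 and 13.82 in microglia, with overlap, and did not pass (-0.996 ± 0.70, adjusted p = 0.273).

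Chemokines were likewise split, with 9 of 23 genes higher in macrophages, 7 lower and a median difference of 0.84. Cxcl2, a chemoattractant of neutrophils, was at 14.97, 14.91 and 15.77 in macrophages against 10.59, 11.02 and 13.12 (lowest, median and highest) in microglia (3.74 ± 0.81, adjusted p = 5.21e-04). Ccl6 differed by 2.86 ± 0.35, the platelet chemokine Pf4 by 3.14 ± 0.66, with overlapping groups, and Ccl17 by 1.37 ± 0.23. Ccl4 and Ccl3 were lower in macrophages, with differences of -2.95 ± 0.44 and -2.47 ± 0.47. Ccl12, a CCR2 ligand of mice, was at 6.96, 6.58 and 8.83 in macrophages against 12.01, 12.86 and 13.30 in microglia (-5.32 ± 0.46, adjusted p = 1.40e-10). Ccl2, the other main CCR2 ligand, overlapped at 12.29 to 13.85 in macrophages and 12.65 to 13.20 in microglia (0.30 ± 0.35, adjusted p = 0.518).

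Among receptors for such signals, 6 of 17 were higher in macrophages and 4 lower, with a median difference of 0.04. The lower count was 2 without WT macrophage 1, WT macrophage 3 or any of WT microglia 2, 4 and 5, and 1 after centring. Cxcr4, which retains leukocytes in bone marrow, was at 15.03, 15.28 and 15.15 in macrophages against 7.74, 8.42 and 9.22 (lowest, median and highest) in microglia (6.71 ± 0.29, adjusted p = 5.64e-17). The leukotriene B4 receptor Ltb4r1 differed by 6.50 ± 0.41 and Ccr1 by 3.67 ± 0.39, beside Ccr2 and Cx3cr1 above.

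**Figure D4:**
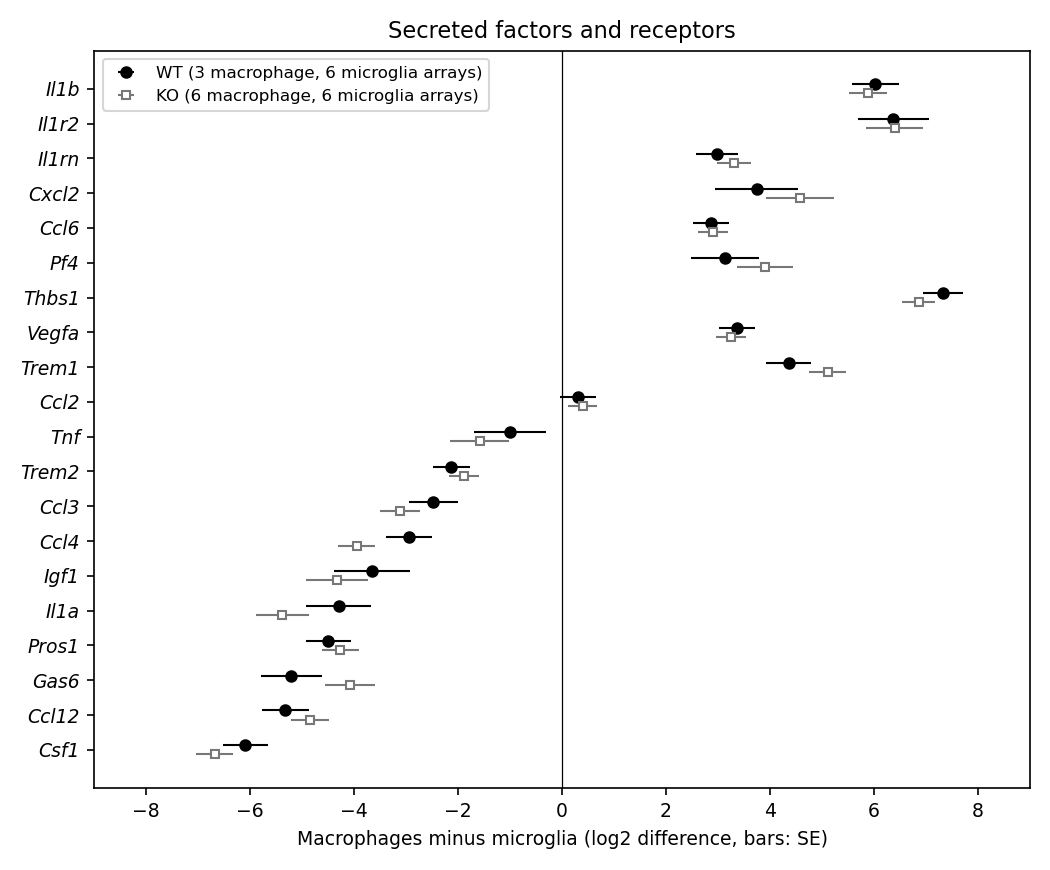
Difference between macrophages and microglia (log2, with the SE of the fit) for 20 secreted factors and receptors in WT mice (black circles, 3 and 6 arrays) and in KO mice (open squares, 6 arrays each). Il1b to Trem1 lay to the right (higher in macrophages) and Trem2 to Csf1 to the left in both genotypes. Ccl2 passed in neither genotype, and Tnf passed as lower in KO mice and not in WT mice, a change with genotype that did not pass its own test.

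TREM, Fc and C-type lectin receptors were mostly higher in macrophages, with 12 of 21 genes higher, 3 lower and a median difference of 0.75. Trem1, the amplifier of inflammatory signals that the KO mice lack, was at 14.11, 14.19 and 13.59 in macrophages and at 7.62, 9.91 and 10.44 (lowest, median and highest) in microglia. The groups did not overlap (4.36 ± 0.44, adjusted p = 3.00e-09), whereas Trem2, its relative above, had the opposite sign. The cluster's signal remained in KO arrays, at 12.81 to 14.39 in macrophages and 7.50 to 9.21 in microglia, so it does not check the knockout. Tyrobp, the adaptor of TREM receptors, was at 16.39 to 16.52 in macrophages and 16.18 to 16.48 in microglia and did not pass (0.14 ± 0.13, adjusted p = 0.413), except after centring, where it was higher in macrophages by 0.54.

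The lectin receptors that sense fungal and dead-cell ligands were among the larger differences. Clec4e, which encodes Mincle, was at 15.67, 14.98 and 15.00 in macrophages against 7.22, 8.03 and 8.95 (lowest, median and highest) in microglia (7.17 ± 0.33, adjusted p = 1.72e-16). Clec4n, which encodes Dectin-2, differed by 6.95 ± 0.37, Clec4d by 4.52 ± 0.48, the inhibitory Clec12a by 5.12 ± 0.57 and Treml4 by 3.39 ± 0.38. Fcgr1, the high-affinity IgG receptor, did not pass (0.18 ± 0.28, adjusted p = 0.648), and the neonatal Fc receptor Fcgrt was lower (-2.01 ± 0.42).

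Toll-like receptors changed in both directions, with 4 of 17 genes higher in macrophages, 6 lower and a median difference of -0.01, which was 0.39 after centring. Tlr3, the sensor of double-stranded RNA, was at 9.60, 8.34 and 9.21 in macrophages against 12.79, 13.23 and 13.62 (lowest, median and highest) in microglia (-4.16 ± 0.45, adjusted p = 1.46e-08). Cd180 (-2.70 ± 0.57) and the single-stranded RNA sensor Tlr7 (-1.25 ± 0.16) were also lower, while Tlr8 (3.54 ± 0.39) and the flagellin receptor Tlr5 (3.34 ± 0.52) were higher. Tlr2 did not pass (0.05 ± 0.25, adjusted p = 0.904). Type I interferon response genes were higher in 8 of 16 and lower in none, with a median difference of 0.90. They were led by Irf7, which amplifies interferon production (3.16 ± 0.50, adjusted p = 1.04e-05), with Oasl1 (2.70 ± 0.39) and the nucleic acid sensor Zbp1 (2.08 ± 0.31).

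Of 20 adhesion genes 7 were higher in macrophages and 6 lower, with a median difference of -0.37, against 9 and 3 with a median of 0.03 after centring. Among the integrins, Itga4, which pairs into VLA-4, was higher by 5.36 ± 0.36 and Itgal, which pairs into LFA-1, by 5.33 ± 0.25, while Itgam did not pass. The hyaluronan receptor Cd44 differed by 4.76 ± 0.33. Lower in macrophages were the cell adhesion molecule Cadm1 (-5.05 ± 0.45), the junction protein Jam2 (-3.47 ± 0.39) and the integrin Itgb3 (-2.95 ± 0.26).

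Efferocytosis and lipid handling genes counted 6 of 21 higher and 6 lower, with a median difference of -0.01, which was 0.40 after centring. The bridging ligands that tag dead cells for TAM receptors were both lower in macrophages. Gas6 was at 5.51, 8.11 and 8.62 in macrophages against 12.002, 12.62 and 13.15 (lowest, median and highest) in microglia (-5.21 ± 0.59, adjusted p = 3.80e-08), and Pros1 differed by -4.49 ± 0.44. Of the receptors they bind, Mertk was lower (-1.84 ± 0.38) and Axl higher (1.78 ± 0.46). Cd93, a lectin-like receptor, was higher by 6.47 ± 0.38 and the fatty acid binding protein Fabp4 by 4.01 ± 0.63.

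Of 16 complement genes 2 were higher in macrophages and 6 lower, shares near those of all clusters, with a median difference of -0.39. After centring 4 were higher and 5 lower, with a median of 0.02. The chains of C1q, the starter of the classical pathway, were lower in macrophages, with differences of -2.13 ± 0.50 for C1qa, -2.19 ± 0.51 for C1qb and -3.17 ± 0.49 for C1qc. The 2 higher genes belong to the alternative pathway. Cfp, which encodes properdin, was at 15.86, 16.75 and 16.62 in macrophages against 8.29, 9.53 and 11.15 (lowest, median and highest) in microglia (6.76 ± 0.52, adjusted p = 1.43e-11), and factor B (Cfb) differed by 3.51 ± 0.34. The C3a receptor C3ar1 was 15.51 to 15.69 in macrophages and 15.95 to 16.38 in microglia and just missed the threshold (-0.52 ± 0.22, adjusted p = 0.0677), which it passed as lower after quantile normalization (-0.59) and in a fit of the compared arrays alone (-0.52).

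Glycolysis and hypoxia response genes were higher in 10 of 21 and lower in 2, with a median difference of 0.74. Pfkp, the platelet-type phosphofructokinase, was at 13.79, 12.29 and 12.72 in macrophages against 6.16, 6.67 and 7.43 (lowest, median and highest) in microglia (6.12 ± 0.46, adjusted p = 6.93e-12). The hypoxia-induced genes Ndrg1 (4.86 ± 0.44), Vegfa (3.36 ± 0.35) and Egln3 (2.47 ± 0.40) and the hypoxia factor Hif1a (1.40 ± 0.21) were higher as well. Gapdh did not pass (0.10 ± 0.14, adjusted p = 0.606) and became higher in macrophages after centring, by 0.50.

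Of 10 genes of arginine metabolism 3 were higher in macrophages and 3 lower, with a median difference of 0.48. The lower count was 2 after quantile normalization, after centring and without WT macrophage 2, and the higher count was 6 after centring. Arg1, the arginase of the urea cycle and of alternatively activated macrophages, was at 14.85, 16.30 and 15.83 in macrophages against 6.53, 8.98 and 10.91 (lowest, median and highest) in microglia. The microglia arrays spread over more than 4 log2 units but none reached a macrophage array (6.73 ± 0.73, adjusted p = 1.48e-08). The mitochondrial arginase Arg2 differed by 4.50 ± 0.28. Of the polyamine enzymes, Odc1 differed by -1.28 ± 0.32 and Srm by -2.15 ± 0.53, and Srm lost the call without WT macrophage 1.

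Iron and haem genes were higher in 3 of 15 and lower in 4, with a median difference of 0.09, and 7 were higher after centring. Haptoglobin (Hp), which binds free haemoglobin, differed by 6.91 ± 0.45, and the iron exporter Slc40a1 by -2.40 ± 0.39. Hmox1, the haem-degrading enzyme, was higher by 1.16 ± 0.43 (adjusted p = 0.0342), with overlapping groups. It lost the call under 8 of 19 alternatives, quantile normalization among them (1.15, adjusted p = 0.051). In purinergic signalling 2 of 12 genes were higher and 4 lower, with a median difference of -0.07, which was 0.33 after centring, with 4 higher. The receptor P2ry10 (3.71 ± 0.33) and the adenosine-forming enzyme Nt5e (1.19 ± 0.33) were higher. P2ry10 carries the family name but is not taken here as a nucleotide receptor. The ATP-gated channel P2rx7 was lower (-1.78 ± 0.37), beside P2ry12 and P2ry13.

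Repair and matrix genes were divided too. Of 15 growth and repair factors 4 were higher in macrophages and 5 lower, with a median difference of -0.38, which was 0.02 after centring. Thbs1, which encodes thrombospondin 1, was at 16.66, 16.60 and 16.28 in macrophages against 8.52, 9.13 and 10.08 (lowest, median and highest) in microglia (7.33 ± 0.39, adjusted p = 3.89e-15). Igf1, a trophic factor of microglia, was at 9.68, 8.96 and 9.63 in macrophages against 11.11, 13.20 and 14.34 in microglia, again without overlap (-3.66 ± 0.73, adjusted p = 2.21e-04). Pdgfb was lower (-1.39 ± 0.26).

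Of 18 matrix proteases and inhibitors, 10 were higher and 3 lower, with a median difference of 0.80. The collagenase Mmp8 differed by 7.95 ± 0.51 and the inhibitor Timp1 by 4.91 ± 0.39, while the elastase Mmp12 (-3.74 ± 0.93) and the inhibitor Timp2 (-2.40 ± 0.29) were lower, beside Adamts1. The NADPH oxidase subunits Cybb (2.84 ± 0.51) and Ncf4 (1.78 ± 0.20) were higher, in a list with 4 of 14 genes higher, 1 lower and a median difference of 0.42. That higher count was 2 without WT macrophage 3, 8 without WT microglia 6 and 9 after centring. In leukotriene and prostaglandin synthesis 5 of 15 were higher and 5 lower, with a median difference of 0.73, and 8 were higher after centring. The enzymes of the final steps, Hpgds for prostaglandin D2 (-3.53 ± 0.41) and Ltc4s for leukotriene C4 (-3.31 ± 0.35), were lower in macrophages. The phospholipase Pla2g7 (4.79 ± 0.43), the prostaglandin E2 receptor Ptger2 (4.47 ± 0.39) and the 5-lipoxygenase activator Alox5ap (1.77 ± 0.29) were higher.

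Markers of other cells were checked beside these results, and their part in them was not tested. The macrophage gate, CD45hi CD11b+ Ly6G-, is meant to remove neutrophils by Ly6G and most lymphocytes, glia and neurons by CD11b or CD45. Of 19 neutrophil genes 6 were higher in macrophages and none lower, and the mean level of the list's genes was 7.68 to 8.32 in WT macrophage arrays, 6.12 to 6.58 in WT microglia and 12.25 to 14.21 in WT neutrophils. S100a8, a calcium-binding protein abundant in neutrophils and monocytes, was at 11.07, 12.66 and 10.13 in macrophages and at 4.65, 6.36 and 7.11 (lowest, median and highest) in microglia (5.11 ± 1.01, adjusted p = 2.02e-04), while its partner S100a9 did not pass (0.98 ± 0.81, adjusted p = 0.359). Lcn2 (4.51 ± 0.96) and the chemokine receptor Cxcr2 (1.64 ± 0.32) were highest in WT macrophage 2. The neutrophil genes Retnlg and Mrgpra2b, picked after their values were seen, were at 5.07 to 6.30 and 4.79 to 5.42 in macrophages, near the dim end. In neutrophils they were at 15.44 to 17.45 and 14.17 to 15.97. Neither passed, but Retnlg passed as higher in macrophages in a limma fit of the compared arrays alone (0.91, adjusted p = 0.0302). Mmp8, Il1r2 and Lcn2, named among the differences, are on this list.

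Of 9 NK cell genes 5 were higher in macrophages, but 1 without WT macrophage 1. Gzma was at 10.45, 3.92 and 4.26 in macrophages and at 3.75 to 3.97 in microglia, and Prg2, an eosinophil granule gene, was at 10.16, 5.11 and 5.86 in macrophages and at 4.51 to 4.94 in microglia. WT macrophage 1 alone was high for both. Gzma passed (2.33 ± 0.71, adjusted p = 0.0101) with overlapping groups and fell to a difference of 0.21 without that array. Klrb1c, Ncr1 and Klre1 also lost their calls without it, whereas the receptor Klrk1, at 7.80, 6.33 and 7.95 in macrophages against 4.29 to 5.11 in microglia, was higher by 2.68 ± 0.30 and kept its call.

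Markers of T cells and B cells were dim, with list averages of 5.19 to 5.32 and 5.47 to 5.78 in macrophages and 5.33 to 5.71 and 5.91 to 6.23 in microglia. Among 9 T cell genes none was higher and 1 lower, and among 9 B cell genes none was higher and 4 lower, of which 1 was lower after centring. Basophil, mast cell and eosinophil genes were higher in 2 of 10 and lower in 2, with 1 higher when any one macrophage array or WT microglia 2, 3 or 6 was left out. Of 10 astrocyte markers 1 was higher and 4 lower, but 1 lower under both other scalings and without WT macrophage 1 or WT microglia 1, and 2 without WT macrophage 2 or WT microglia 6. Of 9 oligodendrocyte markers 6 were lower, but 2 after quantile normalization and 1 after centring. Of 10 neuron markers 1 was higher and 2 lower (1 after centring). Of 10 endothelial markers 2 were higher (1 without WT macrophage 3, 4 after centring) and 2 lower (1 without WT macrophage 1 or 3 or WT microglia 1 or 4, none under both other scalings). Of 10 mural cell markers 4 were lower, but 1 after quantile normalization and 2 after centring, and of 5 markers of red cells and platelets 1 was higher and 2 lower (none under both other scalings). Both cell types were below the median of all clusters for 6 of the astrocyte, 8 of the oligodendrocyte, 9 of the neuron, 7 of the endothelial and 7 of the mural markers and for none of the red cell and platelet markers.

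Of 16 genes induced by stress and tissue dissociation 1 was higher in macrophages and 5 lower, shares near those of all clusters. The median difference was -0.55, and -0.14 after centring. Egr1 was among the lower genes (-3.09 ± 0.64), and list averages were 10.64 to 11.50 in macrophages and 10.81 to 12.42 in microglia. The lower count was 3 without WT macrophage 1 and 6 without WT macrophage 3. Of 12 broadly expressed genes 3 were higher and 2 lower, with a median difference of 0.20. The higher count was 1 without WT macrophage 3 or WT microglia 1 and 8 after centring, where the median was 0.60.

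The same contrast in KO mice gave 2619 clusters higher in macrophages (11.8%) and 6946 lower (31.4%). Its group means share no array with the WT ones. Both contrasts took their spread from the same fit of all 30 arrays, so their calls are not independent. Of the 2126 WT clusters that were higher, 1803 were also called higher in KO mice, 84.8% of the WT and 68.8% of the KO calls. Of the 6159 that were lower, 4987 were also lower there, 81% of the WT and 71.8% of the KO calls. Among WT calls of at least 2-fold, 94.1% of those higher and 95.1% of those lower were called in the same direction, and 1 WT call in all was called in the opposite one. Over all clusters the WT and KO differences correlated at 0.95, a description across clusters that share arrays and are not independent.

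**Figure D5:**
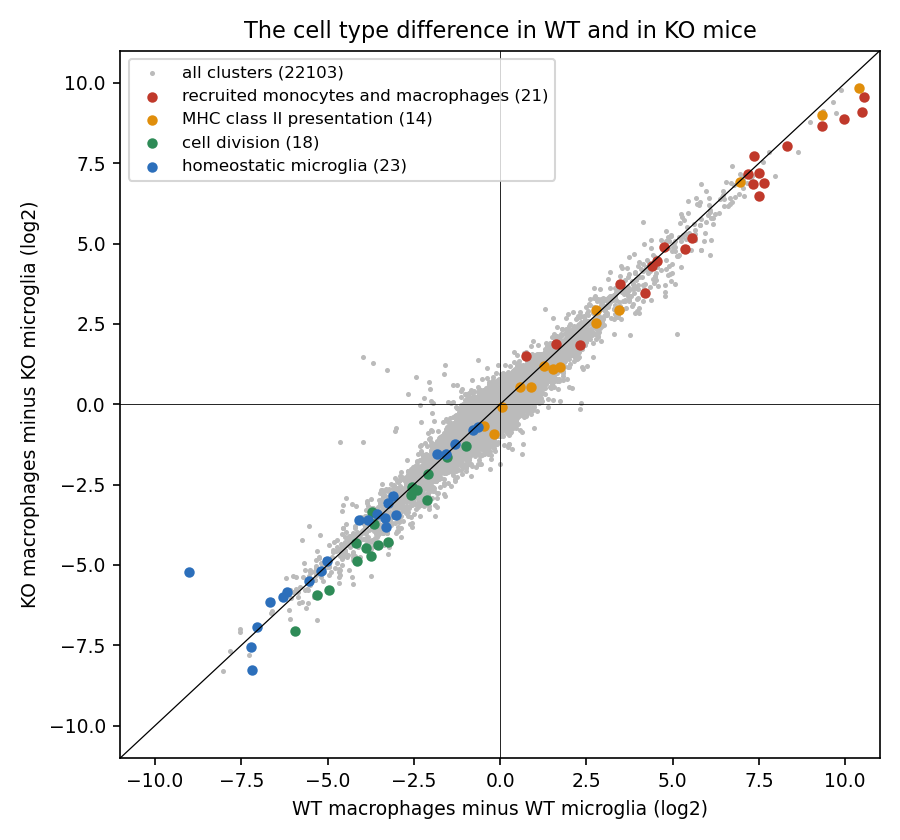
Difference between macrophages and microglia (log2) for each of 22103 clusters in WT mice (horizontal axis) and KO mice (vertical axis), with 4 gene lists in colour and the line of equal differences. Clusters lay along the line, with recruited cell and MHC class II genes at the upper right and homeostatic and cell division genes at the lower left. The homeostatic gene above the line at the far left is Sparc, at -9.02 in WT and -5.23 in KO mice.

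By list, the KO contrast repeated the calls of the most one-sided ones. Higher were 21 of 21 recruited cell genes, and lower were 23 of 23 homeostatic and 18 of 18 cell division genes. Of 14 class II presentation genes, 10 were higher and 1 was lower. A test of whether the cell type difference itself depended on genotype called 0 clusters in limma, with 761 at an unadjusted p under 0.05. The 4 genes named by smallest p were Grap2 (2.41 in WT and 1.09 in KO mice, adjusted p of the change = 0.555), Entpd6 (-0.56 and -1.87, adjusted p = 0.555), Lrrc4 (-4.59 and -3.32, adjusted p = 1.00) and Defa22 (-1.08 and -0.05, adjusted p = 1.00). The WT call of Entpd6 was lost under 12 of 19 alternatives, both other scalings and the omission of any one WT macrophage array among them. A p that misses the threshold does not show that the differences were equal.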

How the data were processed

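RNA of sorted cells, with an integrity number above 7.5 per the labels, was made into labelled cDNA from 0.6 to 0.8 ng and hybridised to Affymetrix Clariom HT mouse arrays. The authors deposited linear intensities made with RMA, per the submitters' processing notes, a method of background correction, normalization across arrays and summary of probes. Its version, and which arrays were normalized as 1 set, are not given in the sources used here. Their log2 was taken here with no pseudocount, and all clusters were kept. The deposited annotation gave 1 symbol to 19508 of 22103 clusters, for 19479 genes. Signal over background is not given per array, which limits what can be read from dim clusters. The number of arrays limits the precision.

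All 30 arrays, in 6 groups with 1 mean each, entered a linear model in limma 3.58.1 in R 4.3.3 (24 residual degrees of freedom, lmFit and eBayes), so that all groups share 1 estimate of the spread. Every adjusted p in the text is from limma with Benjamini-Hochberg adjustment over all clusters of its comparison, at a threshold of 0.05. The contrasts were WT macrophages minus WT microglia, the same in KO mice, and the change of that difference with genotype. The script was tested on simulated data in which the changes were known. Of 50 changes of 1 log2 unit per contrast, it recovered 52% in WT, 76% in KO and 36% for the change with genotype. False calls made up 0.781%, 6.49% and 8.73% of all calls in these contrasts. Smaller changes were mostly missed.

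The members and the 39 gene lists (610 genes, 558 of them measured) were chosen with earlier results of these data known, and no list was tested as a set. Genes were named by a rule: the 12 most increased and 12 most decreased that passed and whose brighter group mean reached the median level of the clusters, and from each list up to 6 that passed with the smallest p, up to 3 that passed against the majority and up to 3 of the brightest that did not pass. Trem1, the gates' genes and the 4 with the smallest p for the genotype change were added. The text gives 184 genes, a part of those the rule names, and 15 of them were added after their values were seen: Tmem119, Mef2c, Ccnb2, Cxcl2, Ccl3, Mertk, Axl, C1qa, Retnlg, Mrgpra2b, Ttr, Cytl1, Prg4, Dcn and Lum. Gene models that are predicted or clone-named were counted but not named.

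Alternatives changed the scaling (quantile normalization over all arrays, or centring on the array median), the weighting (array weights), the variance model (trend and robust prior), the clusters tested (without the dimmest 25%, or with 1 per gene) and the arrays (those compared alone, or with each one dropped in turn), or took the replicate number as a block. Leaving out KO microglia 2 and 4, WT macrophage 1 with WT microglia 4, or clusters below the median level was chosen after seeing the data. Replicate numbers 1 to 3 occur in both groups, but the deviations of same-numbered arrays from their group means correlated at -0.0157, 0.0983 and -0.0459, so the numbers were not taken as pairs. Over pairs of any numbers the correlations ran from -0.248 to 0.402. The highest was that of WT macrophage 1 with WT microglia 4, and its source was not tested. Promoter windows were RefSeq's for GRCm38.p6. The plots used Python 3.11.15 with matplotlib 3.10.9.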

Additional observations from a re-analysis of the deposited data

Results flagged for a closer look

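In the 6 WT microglia arrays, 13 of the 184 genes named had 1 array whose gap to the nearest of the others was over 0.625 of the group's range (Dixon's test), where chance flags about 1 in 20 groups. WT microglia 3 was highest for Chil3 (7.39, others 4.21 to 5.13), Ly6c2 (6.55, others 5.06 to 5.26) and Timp1 (5.75, others 3.72 to 4.11). WT microglia 5 was highest for Il1r2 (10.91, others 5.59 to 6.32) and Ccl17 (7.77, others 7.04 to 7.28). WT microglia 1 was lowest for Trem1 (7.62, others 9.55 to 10.44) and highest for Vegfa (11.29, others 9.68 to 9.98). WT microglia 4 was lowest for Tlr5 (6.34, others 7.42 to 7.88), Odc1 (11.80, others 12.63 to 12.98) and Srm (13.28, others 14.19 to 14.49), and highest for Klre1 (6.23, others 5.55 to 5.78) and Hpgds (15.63, others 14.67 to 14.98). WT microglia 6 was lowest for Tlr2 (12.47, others 13.14 to 13.38). Groups of 3 arrays, such as the WT macrophages, were not tested.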

How the results depend on the processing

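The number of calls followed the scaling. Quantile normalization gave 3180 clusters lower in WT macrophages, and 4191 higher and 4063 lower in KO macrophages, and centring gave 4835 higher and 2441 lower in WT and 6109 higher and 3213 lower in KO macrophages. With clusters at or above the median level only, 3386 were lower in WT macrophages, from fewer clusters tested. Leaving out each array in turn gave 1766 to 2106 higher and 4911 to 6175 lower clusters in WT macrophages, 2390 to 2515 higher and 6471 to 6731 lower in KO macrophages, and 0 for the change with genotype. The replicate block gave 1999 higher and 5535 lower in WT and 2569 higher and 6845 lower in KO macrophages, and the remaining alternatives stayed within 1.5 times the reported counts. Of 163 named genes that passed, 152 kept their call and direction under every alternative. The sign turned for 2 genes near 0 that never passed. With each array left out in turn, Ccl2 ran from -0.0395 without WT macrophage 3 to 0.743 without WT macrophage 1, and Tlr2 from -0.15 without WT macrophage 1 to 0.354 without WT macrophage 2. Tlr2 was also at -0.0581 after quantile normalization and -0.103 without WT macrophage 1 and WT microglia 4. The cause was not tested.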

Other observations

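Genes of connective tissue and choroid plexus varied between arrays of 1 cell type; they were picked after their values were seen. Cytl1, a secreted protein of cartilage, was at 7.26, 5.39 and 11.10 in WT macrophages against 8.55, 12.24 and 14.38 (lowest, median and highest) in WT microglia. It passed as lower in macrophages (-3.98 ± 1.26, adjusted p = 0.0134), lost the call under array weights and without WT macrophage 1 or WT macrophage 2, and had a difference of 1.48 in KO mice that did not pass. The joint lubricant gene Prg4 and the collagen-binding proteoglycans Dcn and Lum ran in the same order, with WT macrophage 3 the highest macrophage array and WT microglia 1 and 3 the highest of their group for each. Their differences were -3.69 ± 1.12, -3.27 ± 1.02 and -2.43 ± 1.02, of which Lum did not pass (adjusted p = 0.0596), though it passed under 4 of 19 alternatives. Prg4 lost the call without WT macrophage 2 (adjusted p = 0.122), and Dcn without WT macrophage 1 or WT macrophage 2 (adjusted p = 0.0807 and 0.072) and without WT macrophage 1 and WT microglia 4 together. WT neutrophil arrays held Cytl1 at 13.56 to 17.62. Sparc, described above, was also highest in WT macrophage 3.

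Ttr, which encodes the transport protein transthyretin made by the choroid plexus, was at 6.84, 8.05 and 7.26 in WT macrophages and at 9.80, 11.83 and 14.05 (lowest, median and highest) in WT microglia, without overlap (-4.67 ± 1.25, adjusted p = 0.00401). Its order among the microglia arrays differed from that of Cytl1, with WT microglia 3 and 5 highest. In KO mice the difference was -5.57 and passed.

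KO microglia varied in neutrophil transcripts, with S100a8 at 3.89 to 12.04, Lcn2 at 5.56 to 12.45 and Retnlg at 4.84 to 9.36 over 6 arrays. Without KO microglia 2 and 4, 2327 clusters were higher and 6329 lower in KO macrophages.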
